A study of Cucumis melo with 18 samples.

Results

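The genes described here are those whose transcript level differed between the melon lines B-14 and B-6 at every stage sampled, always in the same direction. Counts were scaled to CPM, the count divided by the library total and scaled so that each library has the same sum. A gene was taken when, at each of 3 stages, the lowest library of one line lay above the highest library of the other and the group mean was at least 2 times higher, with a highest group mean of at least 1 CPM. Of 16787 genes past that minimum, in a table of 22394, 174 (1.04%) met the rule, 111 of them higher in B-14 and 63 higher in B-6. The genes were thus chosen by their measured counts in these libraries, and the differences between the lines are given as a description, without a test. Another 2 identifiers were left out of the rule and are not reported here.

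B-14 is an inbred line of Cucumis melo whose flesh turns orange at ripening, and B-6 is an inbred line with white flesh. Fruits were collected at 10, 30 and 45 days after pollination (DAP), and the groups are named “1_14”, “3_14” and “4_14” for B-14 and “1_6”, “3_6” and “4_6” for B-6, in the order of the stages. Each of the 6 groups had 3 libraries of bulk RNA from different plants, with 1 pollinated fruit on each, and no treatment was applied. Each colour is represented by 1 inbred line, so orange flesh and every other difference between these lines cannot be told apart. The tissue label reads blade while the methods describe fruit flesh, and no identifier annotated in the sources is a defining marker of either, so this could not be checked. In bulk tissue, fewer cells of a type and less RNA per cell cannot be told apart.

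An inbred line carries nearly the same allele on both copies of each chromosome, so lines of a species differ at fixed sites throughout the plant. Melon flesh is built from the fruit wall, and during its growth and ripening many transcripts change, among them those for cell division, cell wall, sugar and pigment metabolism. Flesh colour in melon comes mainly from carotenoids and chlorophylls, whose pathways are listed with the annotated genes.

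Library totals lay between 20651703 and 22675606 counts, so 1 library at the floor of 3 counts had between 0.132 and 0.145 CPM. Within a group, the correlation of log CPM across genes between pairs of libraries was between 0.9697 and 0.9919, and 1_14 held the lowest value.

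At 10 DAP, the criterion of no overlap and a 2-fold difference was met by 13.9% of the 16787 genes in favour of B-14 and 12.6% in favour of B-6. At 30 DAP it was met by 3.91% in favour of B-14 and 3.58% in favour of B-6, and at 45 DAP by 6.0% in favour of B-14 and 4.56% in favour of B-6. Most such genes were left behind when all stages were required. Of 230 genes that were higher in B-14 at 30 and 45 DAP, 111 (48.3%) were also higher at 10 DAP and 10 were lower there. Of 159 genes that were higher in B-6 at 30 and 45 DAP, 63 (39.6%) were also higher in B-6 at 10 DAP and 18 went the other way. Without any minimum fold, 704 genes had lines that did not overlap at any of the 3 stages, in the same direction throughout.

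The size of the difference varied widely among the 174 genes. For the 111 genes higher in B-14, the median ratio of B-14 to B-6 was 4.96-fold at 10 DAP, 4.14-fold at 30 DAP and 4.28-fold at 45 DAP, and 34, 30 and 32 genes exceeded 10-fold at these stages. For the 63 genes higher in B-6, the median ratio of B-6 to B-14 was 4.00-fold at 10 DAP, 4.54-fold at 30 DAP and 5.28-fold at 45 DAP, and 12, 13 and 19 genes exceeded 10-fold. These ratios set a line with less than 3 counts per library at that floor and leave out a stage at which both lines lay below it, which was the case for 2 genes higher in B-14 and 5 genes higher in B-6. Mean levels over the 9 libraries of the higher line lay between 0.426 and 956 CPM for the first set, with a median of 14.7 CPM, and between 0.621 and 245 CPM for the second, with a median of 6.39 CPM. In 51 genes higher in B-14 and 19 genes higher in B-6, the 9 libraries of one line did not overlap the 9 of the other with the stages pooled. The rule favours such genes, the share over all genes was not counted, and nothing is read from this count.

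**Figure D1:**
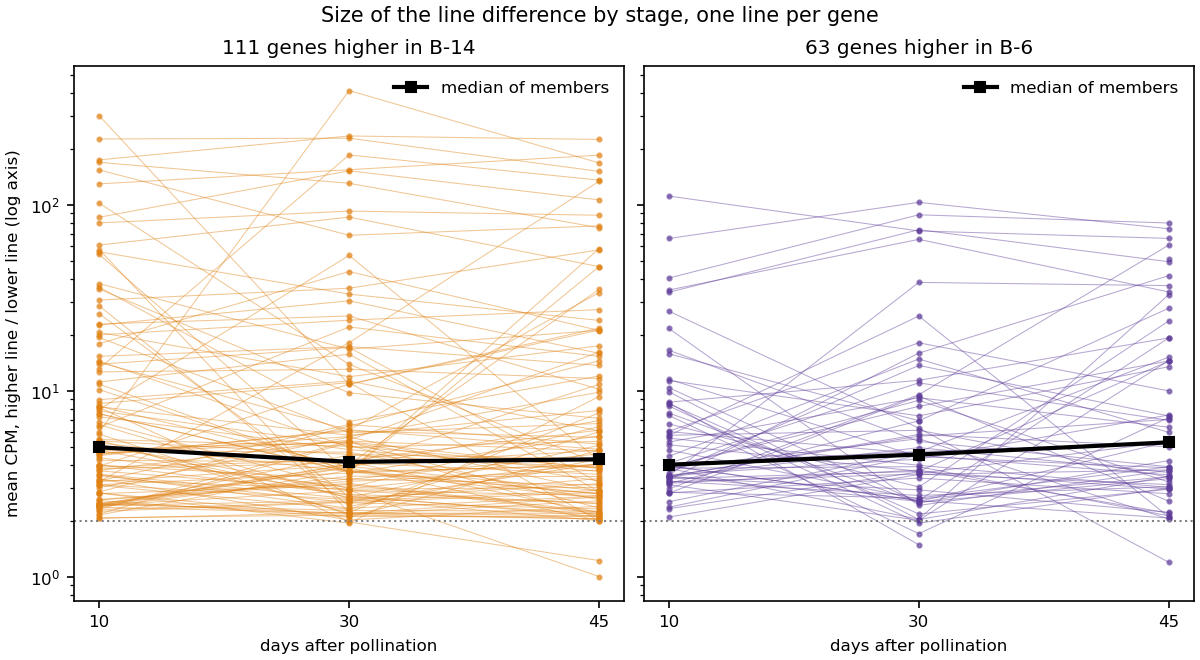
Ratio of the mean CPM of the higher line to that of the lower line (log axis) against days after pollination, with a thin line for each gene, the 111 genes higher in B-14 on the left and the 63 higher in B-6 on the right, the black squares giving the median and the dotted line a ratio of 2. The medians lie between 4.00-fold and 5.28-fold while single genes exceed 100-fold, and the few points under the dotted line are low counts set against the floor.

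The genes nearest to the 2-fold limit were MELO3C005414.2 and MELO3C010270.2 on the inner side, both with a ratio of 2.001 at 45 DAP, and MELO3C029930.2 with 1.998 at 30 DAP and MELO3C029991.2 with 1.991 at 10 DAP on the outer side. In MELO3C010270.2 the earlier stages lay far from the limit, as B-14 was 8.54-fold higher at 10 DAP and 11.04-fold higher at 30 DAP.

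The same pairs of groups were fitted across all genes with edgeR, and a gene was called at an adjusted p of at most 0.05 and a 2-fold change. The fit tested 163 of the 174 genes in 1_14 against 1_6 and called 156, beside 26.3% of all genes tested (12.4% higher in 1_14 and 13.9% lower). In 3_14 against 3_6 it called 141 of 153, beside 5.58% (2.88% higher in 3_14 and 2.70% lower), and in 4_14 against 4_6 it called 135 of 155, beside 8.20% (4.25% higher in 4_14 and 3.95% lower). All of these calls had the direction of the rule. Since the rule used these contrasts, nothing is read from the counts.

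Annotations were available in the sources for 153 of the listed identifiers, and 11 of these were among the 174 genes, beside 1.04% of all genes past the minimum. Many of the annotations come from lists that the study made of genes changed in these samples. Of 19 leading genes in its list for 4_14 against 4_6, 6 were members, so nothing is read from the count. The 11 genes were 4 transcription factors, a further homeobox protein, 5 other proteins that were higher in B-14, and 1 enzyme that was higher in B-6. The remaining members are given by identifier alone.

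Among the transcription factors that were members, WRKY75 (MELO3C008175.2) had the largest line difference at 45 DAP. In Arabidopsis, WRKY75 acts in the response to phosphate shortage and promotes leaf senescence. It had 18.7, 15.9 and 21.0 CPM in 1_14, 16.3, 13.4 and 18.05 CPM in 3_14 and 497, 530 and 512 CPM in 4_14, against 3.11, 3.32 and 4.16 CPM in 1_6, 5.53, 3.002 and 4.49 CPM in 3_6 and 9.99, 9.56 and 6.92 CPM in 4_6. No library of B-6 reached the lowest B-14 library at any stage, and the 4_14 libraries lay far above the other 15. The B-14 to B-6 ratio was 5.25-fold at 10 DAP, 3.67-fold at 30 DAP and 58.1-fold at 45 DAP. Within B-14 it rose at 45 DAP by 5.0 ± 0.14 on the log2 scale against 30 DAP (adjusted p = 2.8e-05, edgeR's quasi-likelihood test) and by 4.72 ± 0.14 against 10 DAP (adjusted p = 1.8e-06). Within B-6 the log2 change at 45 against 10 DAP was 1.13 ± 0.25 (adjusted p = 0.0037), and without 1_6 replicate 1 it was 0.99, under the 2-fold limit. The study annotated further genes as probable WRKY75, and these were not members. By the study's own values they did not all rise in B-14 at 45 against 10 DAP.

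MYB48 (MELO3C020701.2), a transcription factor of the MYB family, had 5.09, 8.67 and 8.64 CPM in 1_14, 16.3, 33.2 and 19.5 CPM in 3_14 and 5.75, 10.4 and 4.51 CPM in 4_14, against 0.958, 2.08 and 2.58 CPM in 1_6, 4.81, 12.4 and 7.66 CPM in 3_6 and 2.98, 2.41 and 2.91 CPM in 4_6. It was highest at 30 DAP in both lines, and its 4_14 libraries overlapped those of 3_6. B-14 exceeded B-6 3.99-fold at 10 DAP, 2.77-fold at 30 DAP and 2.49-fold at 45 DAP. Against 10 DAP, the level at 30 DAP rose by 1.56 ± 0.32 on the log2 scale in B-14 (adjusted p = 0.0043) and by 1.96 ± 0.45 in B-6 (adjusted p = 0.0047), and at 45 DAP it fell again against 30 DAP, with log2 changes of -1.75 ± 0.37 in B-14 (adjusted p = 0.0081) and -1.57 ± 0.34 in B-6 (adjusted p = 0.0062).

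ZAT11 (MELO3C020703.2), annotated as a zinc finger protein, carried an identifier close to that of MYB48. It had 2.16, 2.83 and 1.37 CPM in 1_14, 2.58, 4.25 and 2.20 CPM in 3_14 and 6.11, 5.18 and 7.92 CPM in 4_14, against 0.431, 0.369 and 0.587 CPM in 1_6, 0.385, 0.484 and 0.725 CPM in 3_6 and 0.138, 0.364 and 1.46 CPM in 4_6. The third library of 4_6 was above the lowest library of 1_14, so the lines separated within stages but not over the whole course. The B-14 to B-6 ratio was 4.58-fold at 10 DAP, 5.67-fold at 30 DAP and 9.81-fold at 45 DAP. In B-14 it rose at 45 DAP by 1.53 ± 0.32 on the log2 scale against 10 DAP (adjusted p = 0.0042, edgeR's quasi-likelihood test). Against 30 DAP it rose by 1.08 ± 0.30 (adjusted p = 0.022), a call lost with all 18 libraries in 1 fit and without some single libraries. In B-6 the change of 0.30 ± 0.76 at 45 against 30 DAP was not called (adjusted p = 0.76), and the gene was not tested at 45 against 10 DAP.

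NAC92 (MELO3C022002.2) belongs to the NAC family, and its Arabidopsis namesake is a promoter of leaf senescence. The gene had few counts, with 3.47, 1.76 and 3.11 CPM in 1_14, 0.368, 0.769 and 0.422 CPM in 3_14 and 1.11, 0.580 and 1.52 CPM in 4_14, against 0.239, 0.508 and 0.361 CPM in 1_6, 0.192, 0.0968 and 0.0453 CPM in 3_6 and 0.458, 0.228 and 0.529 CPM in 4_6. In 3_6 this came to 4, 2 and 1 counts, so the ratio at 30 DAP rests on few reads. B-14 exceeded B-6 7.52-fold at 10 DAP, 4.66-fold at 30 DAP and 2.64-fold at 45 DAP. The edgeR fit did not call the line difference at 45 DAP (log2 change of 1.34 ± 0.51) and did not test the gene at 30 DAP. Within B-14, NAC92 fell at 30 DAP against 10 DAP, with a log2 change of -2.47 ± 0.42 (adjusted p = 0.0017).

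The homeobox protein HD1 (MELO3C005620.2), a homeodomain protein, had 27.8, 23.3 and 21.9 CPM in 1_14, 45.8, 56.5 and 41.6 CPM in 3_14 and 40.3, 42.9 and 41.5 CPM in 4_14, against 5.51, 5.36 and 3.30 CPM in 1_6, 16.8, 20.9 and 16.2 CPM in 3_6 and 8.21, 8.42 and 7.94 CPM in 4_6. B-14 exceeded B-6 5.15-fold at 10 DAP, 2.67-fold at 30 DAP and 5.08-fold at 45 DAP, and the 3_6 libraries came closest to B-14. In B-6 the level rose at 30 DAP against 10 DAP by 1.78 ± 0.19 on the log2 scale (adjusted p = 6.8e-05) and fell at 45 against 30 DAP, with a change of -1.13 ± 0.14 (adjusted p = 4.9e-04, edgeR's quasi-likelihood test). In B-14 the corresponding changes were 0.92 ± 0.14 and -0.21 ± 0.11, both under 2-fold.

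**Figure D2:**
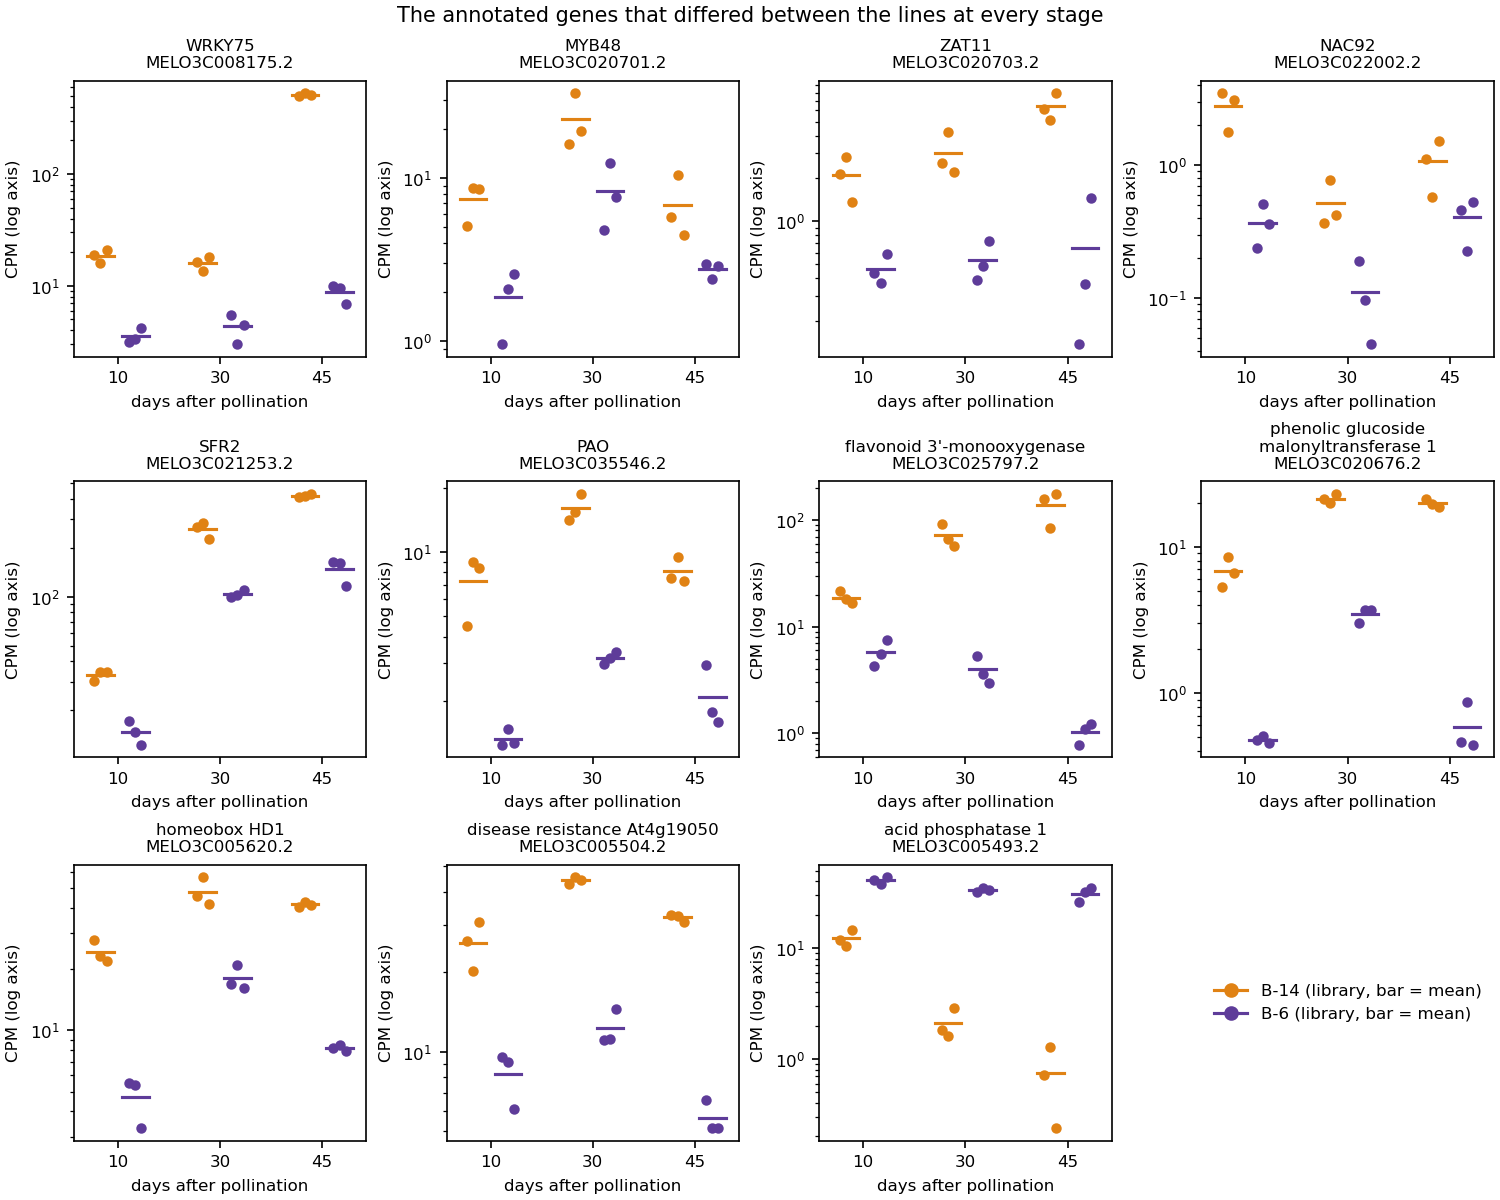
CPM (log axis) of the 11 annotated genes in each library at 10, 30 and 45 days after pollination, B-14 on the left of each stage in orange and B-6 on the right in purple, with a bar at the mean of 3 libraries. In 10 panels the B-14 points lie above the B-6 points at each stage, and for acid phosphatase 1 they lie below them. WRKY75 reaches between 497 and 530 CPM in 4_14, against between 6.92 and 9.99 CPM in 4_6.

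A pair of plastid-related genes was among the members. SFR2 (MELO3C021253.2) is known from Arabidopsis as a galactosyltransferase of the chloroplast envelope that is needed for freezing tolerance. It had 30.5, 34.3 and 34.4 CPM in 1_14, 270, 286 and 227 CPM in 3_14 and 411, 415 and 428 CPM in 4_14, against 17.1, 14.8 and 12.2 CPM in 1_6, 99.8, 102 and 110 CPM in 3_6 and 163, 162 and 117 CPM in 4_6. Both lines rose over development at a near constant ratio, with B-14 higher 2.25-fold at 10 DAP, 2.51-fold at 30 DAP and 2.84-fold at 45 DAP. At 45 against 10 DAP it rose by 3.59 ± 0.11 on the log2 scale in B-14 (adjusted p = 1.8e-06) and by 3.15 ± 0.18 in B-6 (adjusted p = 4.0e-06, edgeR's quasi-likelihood test). PAO (MELO3C035546.2), pheophorbide a oxygenase, opens the ring of the chlorophyll breakdown product pheophorbide. Its values were 4.51, 8.94 and 8.36 CPM in 1_14, 14.04, 15.4 and 18.7 CPM in 3_14 and 7.58, 9.42 and 7.31 CPM in 4_14, against 1.24, 1.48 and 1.27 CPM in 1_6, 2.98, 3.20 and 3.40 CPM in 3_6 and 2.93, 1.77 and 1.59 CPM in 4_6. The lines did not overlap at any stage or across stages, and B-14 was higher 5.47-fold at 10 DAP, 5.03-fold at 30 DAP and 3.86-fold at 45 DAP. The rise at 30 against 10 DAP was 1.08 ± 0.27 in B-14 (adjusted p = 0.010) and 1.10 ± 0.22 in B-6 (adjusted p = 0.0024), and it came under the 2-fold limit without 1_14 replicate 1 (0.84), 3_14 replicate 3 (0.96) or 1_6 replicate 1 (0.99). The study annotated further genes as PAO, and these were not members. In the study's own values, the most abundant of them was higher in B-6 at 10 and 45 DAP and in B-14 at 30 DAP. The other was higher in B-14 at each stage.

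The flavonoid 3′-monooxygenase gene (MELO3C025797.2), whose enzyme class adds a hydroxyl group to the B ring of flavonoids, moved in opposite directions in the lines. It had 21.6, 18.1 and 16.5 CPM in 1_14, 91.96, 66.5 and 57.4 CPM in 3_14 and 156, 84.4 and 175 CPM in 4_14, against 4.31, 5.49 and 7.55 CPM in 1_6, 5.34, 3.58 and 2.99 CPM in 3_6 and 0.779, 1.09 and 1.23 CPM in 4_6. Mean levels were ordered by stage in both lines, upwards in B-14 and downwards in B-6, but not every step was called. In B-14 the log2 change at 45 against 30 DAP was 0.94 ± 0.31, under the 2-fold limit. In B-6 the change at 30 against 10 DAP was -0.72 ± 0.32 (adjusted p = 0.072, edgeR's quasi-likelihood test). The B-14 to B-6 ratio was 3.24-fold at 10 DAP, 18.1-fold at 30 DAP and 134-fold at 45 DAP. At 45 against 10 DAP the gene rose by 2.82 ± 0.30 on the log2 scale in B-14 (adjusted p = 1.3e-04), while in B-6 it fell, with a change of -2.67 ± 0.34 (adjusted p = 2.0e-04, edgeR's quasi-likelihood test). Phenolic glucoside malonyltransferase 1 (MELO3C020676.2), of a class of enzymes that attach malonyl groups to phenolic glucosides, had 5.32, 8.53 and 6.58 CPM in 1_14, 21.4, 19.8 and 22.97 CPM in 3_14 and 21.1, 19.5 and 18.8 CPM in 4_14, against 0.479, 0.508 and 0.452 CPM in 1_6, 3.03, 3.68 and 3.72 CPM in 3_6 and 0.458, 0.865 and 0.441 CPM in 4_6. Its 3_6 level stood above those of 1_6 and 4_6 but below each B-14 library, and B-14 was higher 14.2-fold at 10 DAP, 6.15-fold at 30 DAP and 33.7-fold at 45 DAP. In B-14 it rose by 1.59 ± 0.19 at 30 against 10 DAP (adjusted p = 3.5e-04) and had a change of -0.12 ± 0.10 at 45 against 30 DAP (adjusted p = 0.36), while in B-6 it rose by 2.69 ± 0.25 (adjusted p = 3.3e-05) and then fell, with a change of -2.55 ± 0.31 (adjusted p = 5.3e-04).

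MELO3C005504.2, annotated as a putative disease resistance protein, had 26.2, 20.2 and 30.8 CPM in 1_14, 42.99, 45.5 and 44.3 CPM in 3_14 and 32.9, 32.6 and 30.9 CPM in 4_14, against 9.53, 9.14 and 6.05 CPM in 1_6, 11.1, 11.1 and 14.5 CPM in 3_6 and 6.56, 5.14 and 5.16 CPM in 4_6. It was highest at 30 DAP in both lines, and B-14 was higher 3.12-fold at 10 DAP, 3.61-fold at 30 DAP and 5.72-fold at 45 DAP. None of its stage changes within B-14 reached 2-fold, the largest being 0.72 ± 0.16 on the log2 scale at 30 against 10 DAP (adjusted p = 0.0060).

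Acid phosphatase 1 (MELO3C005493.2), of a class of enzymes that release phosphate from organic esters at low pH, was the annotated gene higher in B-6. It had 11.9, 10.6 and 14.6 CPM in 1_14, 1.84, 1.63 and 2.86 CPM in 3_14 and 0.713, 1.29 and 0.237 CPM in 4_14, against 41.5, 37.7 and 43.6 CPM in 1_6, 32.4, 35.0 and 33.5 CPM in 3_6 and 26.0, 32.3 and 35.0 CPM in 4_6. B-6 stayed within a narrow range while B-14 declined, so that B-6 was higher 3.32-fold at 10 DAP, 15.9-fold at 30 DAP and 41.6-fold at 45 DAP. In B-14 the level fell at 30 against 10 DAP, with a log2 change of -2.61 ± 0.27 (adjusted p = 1.7e-04) and at 45 against 10 DAP, with one of -4.10 ± 0.47 (adjusted p = 2.0e-04). The B-14 change of -1.50 ± 0.54 at 45 against 30 DAP was not called (adjusted p = 0.055, edgeR's quasi-likelihood test). The 4_14 libraries held 16, 29 and 5 counts, so the ratio at 45 DAP rests on few reads in B-14. In B-6 the change at 45 against 10 DAP was -0.58 ± 0.15 (adjusted p = 0.0082), under the 2-fold limit.

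Membership was also counted over the study's lists of carotenoid, chlorophyll and transcription factor genes. The study listed genes that it had called changed in these samples, and most of the transcription factors were picked at 45 DAP. None of the lists is therefore independent of the data or of its direction, and the lists counted here need not be complete. The study's table of transcription factors also holds the magnesium-chelatase subunit ChlH. Over all genes past the minimum, 26.6% met the criterion at 10 DAP, 7.49% at 30 DAP and 10.6% at 45 DAP in either direction, and 1.04% were members. Of 25 carotenoid genes, 12, 2 and 2 met it at these stages and 0 were members. Of 42 chlorophyll genes, 41 of them past the minimum, 9, 3 and 12 met it, and the PAO gene described above was the only member. Of 40 transcription factor genes, 38 of them past the minimum, 22, 8 and 38 met it, and WRKY75, MYB48, ZAT11 and NAC92 were members. These stage counts were made over the whole lists, without the minimum. Nothing about pigment genes as a group is read from these counts.

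In 29 of the 174 genes the lower line had at most 3 counts in each of its 9 libraries, which is called off here. B-6 was off in 22 of the 111 genes higher in B-14, with 0 counts in all 9 libraries for 8 of them, and B-14 was off in 7 of the 63 genes higher in B-6, with 0 counts in all 9 libraries for 1. Among all 16787 genes, B-6 was off in 91 and B-14 in 29. A count of 0 to 3 sets a limit on the reads counted at this depth, after alignment to a melon genome. It does not show that the gene or its transcript is absent from the line. Whether reads of both lines aligned equally well at these genes was not tested. None of the 29 had an annotation in the sources used here. Each ratio is that of the counts of the lines over their 9 libraries, scaled by the library totals, with 95% intervals that cover counting error alone. Against a line at 0 counts the ratios are lower bounds for the counts, computed against 3 counts in each library.

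MELO3C035414.2 had the most counts of this kind, with 442, 581 and 569 counts in 1_14, 742, 713 and 711 counts in 3_14 and 657, 708 and 640 counts in 4_14, against 1, 0 and 0 counts in 1_6, 0, 2 and 1 counts in 3_6 and 1, 0 and 0 counts in 4_6. The sums were 5763 counts in B-14 and 5 in B-6, a ratio of 1140-fold (95% interval 488 to 3513). MELO3C034973.2 had 578, 773 and 711 counts in 1_14, 665, 717 and 725 counts in 3_14 and 520, 460 and 374 counts in 4_14, against 0, 0 and 0 counts in 1_6, 0, 2 and 0 counts in 3_6 and 1, 0 and 1 counts in 4_6, and its ratio was 1366-fold (95% interval 533 to 5015). These genes were used in B-14 at each stage at much the same level, and no stage contrast within B-14 reached 2-fold for either. MELO3C029848.2 was alike, with 346, 419 and 418 counts in 1_14, 435, 437 and 552 counts in 3_14 and 509, 714 and 434 counts in 4_14, against 2, 0 and 0 counts in 1_6, 1, 1 and 2 counts in 3_6 and 0, 0 and 0 counts in 4_6, and a ratio of 703-fold (95% interval 323 to 1917). MELO3C004318.2 had 430, 351 and 766 counts in 1_14, 357, 439 and 410 counts in 3_14 and 259, 200 and 213 counts in 4_14, against 3, 2 and 3 counts in 1_6, 0, 1 and 1 counts in 3_6 and 0, 1 and 2 counts in 4_6, a ratio of 261-fold (95% interval 152 to 490), and 13 counts in B-6 in all, more than any other gene in the off group.

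MELO3C030922.2 was off in B-6 and changed with stage in B-14. It had 26, 3 and 26 counts in 1_14, 1526, 1191 and 1086 counts in 3_14 and 577, 462 and 462 counts in 4_14, against 0, 0 and 0 counts in 1_6, 0, 1 and 0 counts in 3_6 and 0, 1 and 3 counts in 4_6. At 10 DAP the B-14 libraries themselves held few counts, and the second of them was at 3. Within B-14 the gene rose by 6.06 ± 0.52 on the log2 scale at 30 against 10 DAP (adjusted p = 7.3e-05) and fell at 45 against 30 DAP, with a change of -1.37 ± 0.16 (adjusted p = 7.7e-04, edgeR's quasi-likelihood test). Over all stages B-14 was 1060-fold (95% interval 454 to 3267) higher. MELO3C008097.2 had 3045 counts in B-14 and 0 in B-6, which makes B-14 at least 112-fold higher, the largest bound among the 8 genes at 0 in all B-6 libraries. The smallest bound was that of MELO3C035661.2, with 84 counts in B-14 and at least 3.07-fold, and several of its B-14 libraries were themselves at 3 counts or fewer.

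In the other direction, MELO3C034962.2 had 1, 0 and 0 counts in 1_14, 0, 0 and 0 counts in 3_14 and 0, 0 and 0 counts in 4_14, against 173, 194 and 218 counts in 1_6, 291, 304 and 309 counts in 3_6 and 206, 234 and 235 counts in 4_6. The sums were 1 count in B-14 and 2164 in B-6, and the B-6 to B-14 ratio was 2187-fold (95% interval 392 to 86433), whose upper end is set by that 1 count. MELO3C029630.2 had 1, 0 and 0 counts in 1_14, 1, 0 and 0 counts in 3_14 and 0, 0 and 0 counts in 4_14, against 107, 143 and 108 counts in 1_6, 242, 249 and 285 counts in 3_6 and 296, 214 and 213 counts in 4_6, with a ratio of 938-fold (95% interval 259 to 7755). Both were expressed in B-6 at each stage and in B-14 at the level of single counts. MELO3C029598.2 was at 0 counts in each of the 9 B-14 libraries, against 105, 112 and 91 counts in 1_6, 195, 176 and 201 counts in 3_6 and 112, 107 and 89 counts in 4_6, so that B-6 was at least 44.7-fold higher. MELO3C034420.2 had 3 counts in B-14, all in 1 library of 4_14, against 1391 in B-6, a ratio of 469-fold (95% interval 160 to 2275). MELO3C015129.2 had 1 count in B-14 against 286 in B-6, a ratio of 289-fold (95% interval 51.5 to 11457). No stage contrast within B-6 reached the call for any of these 5 genes.

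**Figure D3:**
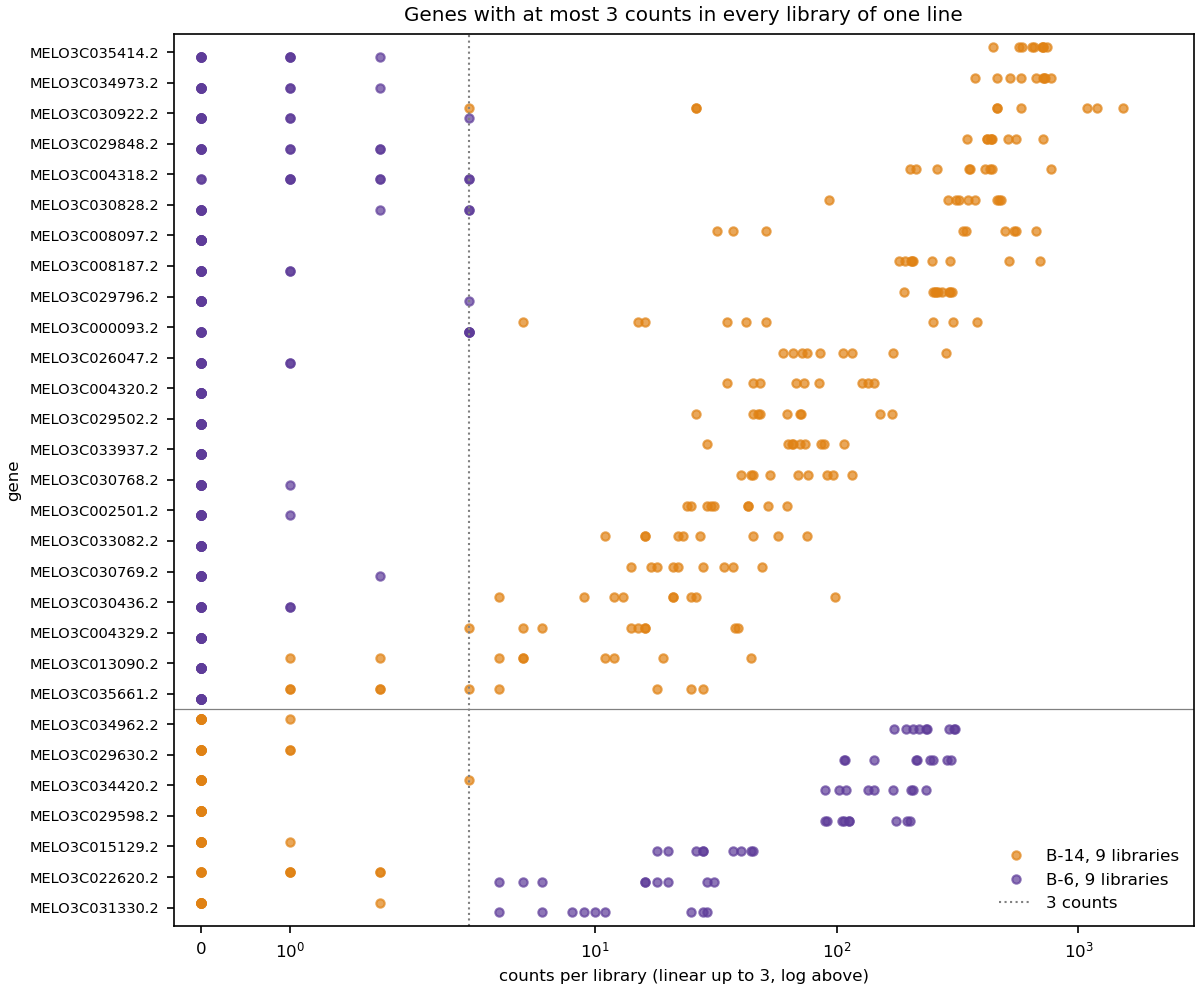
Counts per library (linear up to 3, log above) of the 29 genes with at most 3 counts in each library of one line, with 9 orange points for B-14 and 9 purple points for B-6 in each row, the 22 genes higher in B-14 above the 7 higher in B-6, and a dotted line at 3 counts. The higher line lies far to the right of the dotted line in the top rows, as in MELO3C035414.2 with 5763 counts over 9 libraries, while in the lowest rows of each set, such as MELO3C035661.2 with 84, it approaches the line at 3 counts.

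The off genes carried high identifier numbers more often than the rest. A number of at least 28000, a limit set after these genes were seen, was found in 18 of the 29 off genes (62.1%), in 22 of the other 145 members (15.2%) and in 1246 of all 16787 genes (7.42%). The number says nothing by itself about a position, which was not used here.

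Among the genes that were not off in either line, MELO3C010776.2 had the highest group mean in CPM, a scale that is not corrected for transcript length. It had 122, 119 and 158 CPM in 1_14, 395, 198 and 148 CPM in 3_14 and 2871, 1859 and 2731 CPM in 4_14, against 14.3, 20.7 and 16.3 CPM in 1_6, 31.7, 65.6 and 47.7 CPM in 3_6 and 1622, 970 and 958 CPM in 4_6. B-14 was higher 7.79-fold at 10 DAP, 5.10-fold at 30 DAP and 2.10-fold at 45 DAP. The edgeR fit did not call the line difference at 45 DAP (log2 change of 1.02 ± 0.30). In 4_6 the gene stood above every library of the earlier B-14 stages, so at 45 DAP the line difference was small beside the change with stage. At 45 against 10 DAP it rose by 4.16 ± 0.25 on the log2 scale in B-14 (adjusted p = 1.2e-05) and by 5.93 ± 0.35 in B-6 (adjusted p = 4.5e-06, edgeR's quasi-likelihood test). MELO3C008139.2 went the other way, with 1642, 1659 and 1682 CPM in 1_14, 285, 317 and 244 CPM in 3_14 and 121, 122 and 143 CPM in 4_14, against 426, 546 and 550 CPM in 1_6, 41.4, 43.2 and 43.9 CPM in 3_6 and 9.12, 30.6 and 35.1 CPM in 4_6. It fell at 45 against 10 DAP in both lines, with log2 changes of -3.76 ± 0.14 in B-14 (adjusted p = 2.7e-06) and -4.54 ± 0.50 in B-6 (adjusted p = 9.0e-05), and B-14 was higher 3.27-fold at 10 DAP, 6.58-fold at 30 DAP and 5.17-fold at 45 DAP.

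MELO3C012479.2 was lowest at 30 DAP in both lines. It had 199, 421 and 286 CPM in 1_14, 21.5, 13.5 and 13.9 CPM in 3_14 and 789, 439 and 742 CPM in 4_14, against 11.1, 10.8 and 13.0 CPM in 1_6, 4.28, 8.47 and 5.44 CPM in 3_6 and 237, 323 and 353 CPM in 4_6. The ratio of B-14 to B-6 was 25.9-fold at 10 DAP, 2.69-fold at 30 DAP and 2.16-fold at 45 DAP. Within B-14 it fell at 30 against 10 DAP, with a log2 change of -4.27 ± 0.35 (adjusted p = 5.9e-05), and rose by 5.33 ± 0.34 at 45 against 30 DAP (adjusted p = 1.1e-04). MELO3C005054.2 had 115, 85.4 and 68.4 CPM in 1_14, 290, 470 and 233 CPM in 3_14 and 479, 430 and 529 CPM in 4_14, against 27.8, 18.9 and 16.9 CPM in 1_6, 79.0, 77.5 and 83.1 CPM in 3_6 and 198, 202 and 251 CPM in 4_6. It rose in both lines at 45 against 10 DAP, by 2.35 ± 0.21 on the log2 scale in B-14 (adjusted p = 6.7e-05) and by 3.19 ± 0.19 in B-6 (adjusted p = 4.8e-06, edgeR's quasi-likelihood test).

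Of the genes higher in B-6, MELO3C022613.2 had the highest group mean in CPM, with 111, 73.2 and 112 CPM in 1_14, 69.7, 83.1 and 105 CPM in 3_14 and 31.3, 43.4 and 30.8 CPM in 4_14, against 387, 304 and 269 CPM in 1_6, 339, 293 and 287 CPM in 3_6 and 158, 80.5 and 91.6 CPM in 4_6. The B-6 to B-14 ratio was 3.24-fold at 10 DAP, 3.56-fold at 30 DAP and 3.13-fold at 45 DAP, and at 45 against 10 DAP both lines fell, with log2 changes of -1.57 ± 0.21 in B-14 (adjusted p = 3.9e-04) and -1.70 ± 0.28 in B-6 (adjusted p = 7.7e-04). MELO3C005746.2 had 116, 58.9 and 93.5 CPM in 1_14, 3.54, 4.21 and 8.30 CPM in 3_14 and 2.18, 1.61 and 2.66 CPM in 4_14, against 232, 223 and 224 CPM in 1_6, 36.8, 19.0 and 19.5 CPM in 3_6 and 20.8, 36.9 and 40.0 CPM in 4_6. In both lines it was highest in the youngest fruit, and in B-6 it fell at 45 against 10 DAP, with a log2 change of -2.98 ± 0.24 (adjusted p = 2.0e-05, edgeR's quasi-likelihood test), while the change in B-14 was -5.45 ± 0.33 (adjusted p = 1.2e-05). MELO3C016916.2 had 59.0, 28.4 and 66.1 CPM in 1_14, 1.38, 1.90 and 4.73 CPM in 3_14 and 0.980, 0.669 and 0.901 CPM in 4_14, against 171, 160 and 102 CPM in 1_6, 10.7, 7.80 and 8.70 CPM in 3_6 and 2.70, 3.14 and 1.28 CPM in 4_6. Its fall at 45 against 10 DAP was -5.97 ± 0.41 on the log2 scale in B-14 (adjusted p = 1.9e-05) and -6.09 ± 0.35 in B-6 (adjusted p = 4.1e-06), at a line ratio of 2.83-fold at 10 DAP, 3.39-fold at 30 DAP and 2.79-fold at 45 DAP. MELO3C019505.2, which was higher in B-6 3.18-fold at 10 DAP, 3.75-fold at 30 DAP and 2.20-fold at 45 DAP, and MELO3C026845.2, which was higher in B-6 3.95-fold at 10 DAP, 2.56-fold at 30 DAP and 2.07-fold at 45 DAP, complete the 5 genes of highest CPM in this direction.

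Gene identifiers in the table carry a number, and members with nearby numbers were counted. Of the 174 genes, 24 (13.8%) had another member within 3 numbers, whereas a member lay within 3 numbers of 460 of all 16787 genes (2.74%). With the next number alone the shares were 12 members (6.90%) and 147 genes (0.876%), and within 10 numbers they were 45 members (25.9%) and 1428 genes (8.51%). The 24 genes formed 11 runs, 9 of 2 genes and 2 of 3 genes. In 10 runs all members had the same direction, 7 of them higher in B-14 and 3 higher in B-6. Positions were not used here, and near-identical neighbouring copies could share reads in a way that the sources used here do not describe.

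The first run of 3 held MELO3C004318.2, MELO3C004320.2 and MELO3C004321.2, all higher in B-14. MELO3C004318.2, described with the off genes, and MELO3C004320.2 were off in B-6. MELO3C004320.2 had 2.03, 1.62 and 3.84 CPM in 1_14, 5.85, 6.11 and 6.66 CPM in 3_14 and 3.25, 3.03 and 2.28 CPM in 4_14 and 0 counts in the 9 B-6 libraries, which makes B-14 at least 27.7-fold higher. MELO3C004321.2 was expressed in both lines, with 28.9, 35.6 and 41.1 CPM in 1_14, 17.1, 25.1 and 29.4 CPM in 3_14 and 3.30, 2.28 and 1.52 CPM in 4_14, against 2.44, 2.45 and 2.71 CPM in 1_6, 1.83, 0.775 and 1.59 CPM in 3_6 and 0.550, 1.001 and 0.662 CPM in 4_6. Their courses within B-14 differed, since MELO3C004321.2 fell at 45 against 30 DAP with a log2 change of -3.34 ± 0.32 (adjusted p = 4.2e-04) after a change of -0.63 ± 0.22 at 30 against 10 DAP (adjusted p = 0.040), under the 2-fold limit. MELO3C004320.2 had its highest B-14 level at 30 DAP and fell at 45 against 30 DAP with a change of -1.13 ± 0.18 (adjusted p = 0.0028, edgeR's quasi-likelihood test).

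The second run of 3 was the one with mixed directions. MELO3C002501.2 was off in B-6, with 339 counts in B-14 and 1 in B-6, a ratio of 335-fold (95% interval 59.8 to 13286). MELO3C002504.2 was also higher in B-14, with 23.5, 156 and 18.4 CPM in 1_14, 20.7, 31.3 and 65.5 CPM in 3_14 and 7.18, 6.07 and 5.79 CPM in 4_14, against 1.34, 0.646 and 1.67 CPM in 1_6, 14.3, 8.76 and 9.47 CPM in 3_6 and 0.413, 3.37 and 0.970 CPM in 4_6. The second library of 1_14 stood far above the other 2 of its group. MELO3C002506.2 was higher in B-6 instead, with 0.766, 0.742 and 0.320 CPM in 1_14, 0.552, 0.95 and 1.73 CPM in 3_14 and 0.0891, 0.134 and 0 CPM in 4_14, against 1.39, 2.26 and 1.76 CPM in 1_6, 9.86, 8.62 and 12.3 CPM in 3_6 and 10.3, 6.69 and 7.89 CPM in 4_6. Within B-6 this last gene rose by 2.34 ± 0.25 on the log2 scale at 30 against 10 DAP (adjusted p = 7.0e-05), and within B-14 it fell at 45 against 30 DAP, with a change of -3.75 ± 0.78 (adjusted p = 0.0075, edgeR's quasi-likelihood test).

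Among the pairs, MYB48 and ZAT11 had numbers 2 apart, and phenolic glucoside malonyltransferase 1 was next to MELO3C020675.2, whose mean levels at 10, 30 and 45 DAP were 51.8, 83.9 and 38.9 CPM in B-14 and 1.44, 12.3 and 3.24 CPM in B-6. These 4 genes were all higher in B-14. MELO3C030768.2 and MELO3C030769.2 were both off in B-6, with 630 and 240 counts in B-14 against 1 and 2 in B-6. MELO3C034419.2 and MELO3C034420.2 were both higher in B-6, but B-14 was off in the second alone, and the first had means of 3.99, 4.72 and 2.05 CPM in B-14 and 13.4, 17.4 and 6.06 CPM in B-6 at the 3 stages. The pairs MELO3C008158.2 with MELO3C008159.2, MELO3C008224.2 with MELO3C008226.2 and MELO3C010236.2 with MELO3C010237.2 were higher in B-14. MELO3C018927.2 with MELO3C018930.2 and MELO3C026842.2 with MELO3C026845.2 were higher in B-6. In the pair of MELO3C010236.2 and MELO3C010237.2 the courses differed, the first with B-14 means of 2.22, 2.88 and 3.42 CPM and the second with 38.9, 85.8 and 152 CPM.

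Windows of 200 numbers were counted as a wider scale. Of 179 windows that held a gene past the minimum, 87 held no member and 5 held at least 5. The fullest were the neighbouring windows from 8000 to 8199 and from 8200 to 8399, with 6 members each. Together these had 12 members of 246 genes (4.88%), 11 of them higher in B-14, among them WRKY75, MELO3C008139.2 and the off genes MELO3C008097.2 and MELO3C008187.2. The windows were picked for their number of members and so carry no test. Genes beside the members were also counted. Of 436 other genes within 3 numbers of a member, 171 (39.2%) met the criterion at 1 stage or more, compared with 5785 of all 16613 genes that were not members (34.8%).

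Whether the members changed during fruit development was tested within each line, a contrast that the rule did not use, although it used the same libraries. The rule asks for groups that do not overlap, and its bearing on the share of genes called by stage was not tested. In B-14, 109 of the 111 genes higher in B-14 were tested at 30 against 10 DAP, and 60 were called (55.0%), beside 42.2% of all genes tested. Of these, 28 rose (25.7%, beside 18.7%) and 32 fell (29.4%, beside 23.5%). At 45 against 30 DAP 41 of 109 were called (37.6%), beside 19.3% of all genes, with 23 up (21.1%, beside 7.83%) and 18 down (16.5%, beside 11.4%). Over the whole span from 10 to 45 DAP 66 of 111 were called (59.5%), beside 45.2% of all genes, and 35 rose (31.5%, beside 19.4%) while 31 fell (27.9%, beside 25.7%). The median log2 change at 45 against 10 DAP was 0.12 for these genes and -0.01 for all genes tested.

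In B-6, all 63 genes higher in B-6 were tested at 30 against 10 DAP, and 34 were called (54.0%), beside 42.6% of all genes, with 11 up (17.5%, beside 17.5%) and 23 down (36.5%, beside 25.1%). At 45 against 30 DAP 28 of 59 were called (47.5%), beside 27.2%, with 8 up (13.6%, beside 12.1%) and 20 down (33.9%, beside 15.1%). Over the whole span 36 of 61 were called (59.0%), beside 47.7%. Here 9 rose (14.8%, beside 19.6%) and 27 fell (44.3%, beside 28.2%), and the median log2 change was -0.58 for these genes and 0.02 for all genes tested. The comparisons of 30 and of 45 with 10 DAP share the libraries at 10 DAP within each line.

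**Figure D4:**
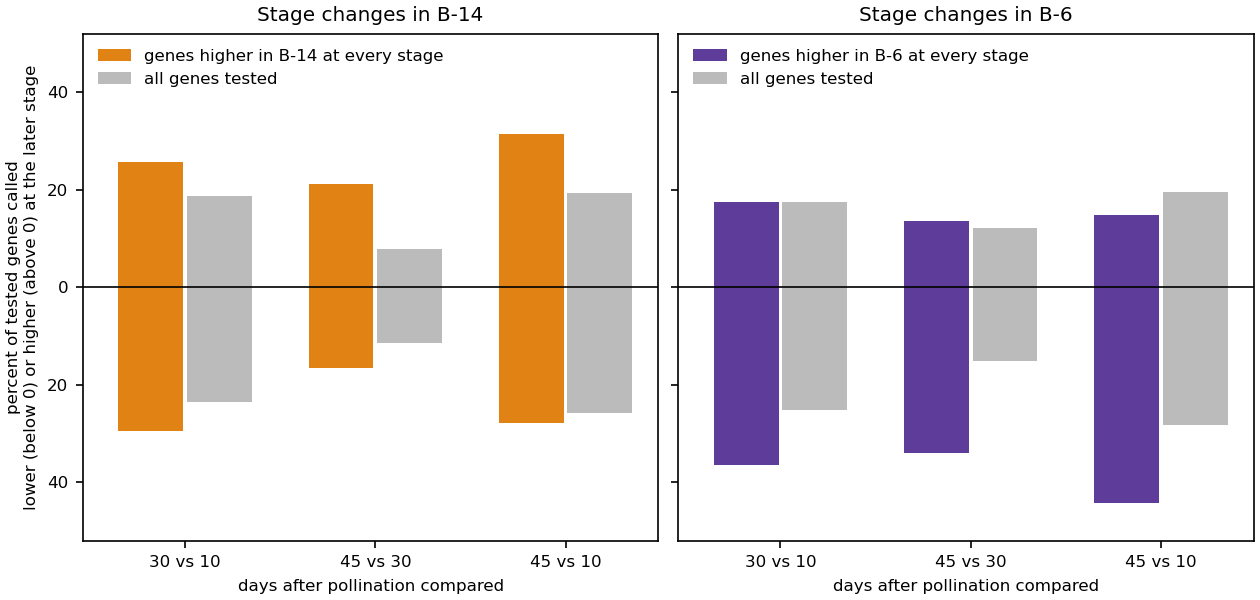
Percent of tested genes called higher (above 0) or lower (below 0) at the later stage, for B-14 on the left and B-6 on the right, with coloured bars for the genes higher in that line at every stage and grey bars for all genes tested. At 45 against 10 DAP the genes higher in B-14 have 31.5% called up and 27.9% down, beside 19.4% and 25.7% of all genes, and the genes higher in B-6 have 14.8% called up and 44.3% down, beside 19.6% and 28.2%.

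The stage at which the higher line had its highest mean was also counted. Of the 111 genes higher in B-14, 41 peaked in 1_14, 32 in 3_14 and 38 in 4_14, and over all genes the shares in B-14 were 40.6%, 28.1% and 31.3%. Of the 63 genes higher in B-6, 28 peaked in 1_6, 26 in 3_6 and 9 in 4_6, and over all genes the shares in B-6 were 34.5%, 29.2% and 36.3%. Members called in none of the 3 stage contrasts of their higher line numbered 30 of 107 tested for B-14 (28.0%, beside 48.5% of all genes) and 16 of 57 for B-6 (28.1%, beside 44.0%). MELO3C035414.2, MELO3C034973.2 and MELO3C029848.2 were among those of B-14, and MELO3C034962.2 and acid phosphatase 1 among those of B-6.

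Where a gene could be tested in both lines, the directions of the calls were counted. At 45 against 10 DAP, of 76 genes higher in B-14 and tested in both lines, 25 rose in both, 16 fell in both and 1, the flavonoid 3′-monooxygenase gene, was called in opposite directions, while 6 were called in B-14 only, 6 in B-6 only and 22 in neither line. Of 41 genes higher in B-6, 5 rose in both, 18 fell in both and 0 were called in opposite directions, while 9 were called in B-14 only, 4 in B-6 only and 5 in neither. Over all 16069 genes tested in both lines, 5315 were called in both, and 2.58% of these were in opposite directions. Of all these genes 42.0% were called in neither line, beside 28.9% of the members higher in B-14 and 12.2% of those higher in B-6. The B-14 and B-6 contrasts share no library. A member that passed the count filter in its lower line had to have enough counts there, so these 76 and 41 genes leave out those that were off.

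The clearest stage changes, by the smallest p-values in each contrast, are given next. MELO3C014432.2, higher in B-6, had 9.15, 6.58 and 10.4 CPM in 1_14, 0.0921, 0.0452 and 0.188 CPM in 3_14 and 0.267, 0.312 and 0.0474 CPM in 4_14, against 76.2, 65.1 and 74.9 CPM in 1_6, 0.385, 0.194 and 0.227 CPM in 3_6 and 0.367, 0.364 and 1.15 CPM in 4_6. It fell at 30 against 10 DAP, with log2 changes of -6.32 ± 0.43 in B-14 (adjusted p = 2.7e-05) and -8.20 ± 0.19 in B-6 (adjusted p = 1.4e-07). Its lines were separated at 30 DAP by few counts, with 2, 1 and 4 counts in 3_14 and 8, 4 and 5 in 3_6. MELO3C005291.2, also higher in B-6, had 5.32, 4.50 and 5.30 CPM in 1_14, 15.2, 19.2 and 16.9 CPM in 3_14 and 0.267, 0.446 and 0.285 CPM in 4_14, against 42.95, 13.1 and 16.4 CPM in 1_6, 46.5, 48.6 and 39.1 CPM in 3_6 and 1.33, 1.32 and 0.794 CPM in 4_6. It fell at 45 against 30 DAP in both lines, with changes of -5.66 ± 0.21 in B-14 (adjusted p = 3.7e-05) and -5.27 ± 0.21 in B-6 (adjusted p = 1.3e-05, edgeR's quasi-likelihood test).

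MELO3C019040.2, higher in B-14, was nearly silent at 30 DAP and high before and after. It had 65.6, 62.5 and 41.3 CPM in 1_14, 0.690, 0.543 and 0.328 CPM in 3_14 and 154, 26.7 and 125 CPM in 4_14, against 5.27, 5.08 and 5.29 CPM in 1_6, 0.0481, 0.194 and 0 CPM in 3_6 and 1.51, 1.64 and 3.44 CPM in 4_6. Within B-14 the log2 change was -6.80 ± 0.31 at 30 against 10 DAP (adjusted p = 6.2e-06) and 7.60 ± 0.86 at 45 against 30 DAP (adjusted p = 7.0e-04), and within B-6 these were -6.10 ± 0.51 (adjusted p = 1.7e-05) and 4.70 ± 0.74 (adjusted p = 0.0015). MELO3C025613.2 rose over the stages in both lines, by 3.50 ± 0.35 on the log2 scale at 45 against 10 DAP in B-14 (adjusted p = 1.0e-04) and by 3.76 ± 0.16 in B-6 (adjusted p = 1.6e-06), with a line ratio of 3.54-fold at 10 DAP, 2.33-fold at 30 DAP and 2.71-fold at 45 DAP. MELO3C021981.2, higher in B-6, had 16.0, 12.3 and 11.4 CPM in 1_6 and fell at 45 against 10 DAP in B-6 (adjusted p = 1.4e-06), where it was left with 2, 1 and 1 counts in 4_6 and 0 in each library of 4_14, so that no ratio is given at 45 DAP.

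The size of the line difference was followed over the stages where both lines lay above the floor at every stage, since a ratio against the floor is a lower bound. This left 66 of the 111 genes higher in B-14 and 31 of the 63 higher in B-6. The ratio moved by more than 2-fold between stages in 24 and 14 of them (36.4% and 45.2%), beside 40.8% of all genes with both lines above the floor, and this was not tested because the rule used these contrasts. Some members outside this count varied in the higher line while the lower line was near 0, so that their change of ratio has no measured size. One of them, higher in B-14, was MELO3C032763.2. It had 52.9, 26.0 and 47.1 CPM in 1_14, 1.52, 1.72 and 1.36 CPM in 3_14 and 2.32, 3.26 and 3.04 CPM in 4_14, against 0, 0 and 0 CPM in 1_6, 0, 0.0484 and 0 CPM in 3_6 and 0.0458, 0.182 and 0.0441 CPM in 4_6. Within B-14 it fell at 30 against 10 DAP, with a log2 change of -4.83 ± 0.32 (adjusted p = 2.4e-05), and B-6 was near 0 throughout. Among genes higher in B-6, MELO3C032579.2 had 0.0451, 0.185 and 0 CPM in 1_14, 0, 0.271 and 0.0938 CPM in 3_14 and 0, 0.0446 and 0 CPM in 4_14, against 1.77, 3.42 and 5.83 CPM in 1_6, 0.337, 1.501 and 0.771 CPM in 3_6 and 0.0917, 0.0455 and 0.353 CPM in 4_6. It fell within B-6 at 45 against 10 DAP, with a change of -4.64 ± 0.73 (adjusted p = 6.6e-04), to a level at which both lines held few counts. MELO3C018930.2, also higher in B-6, had group means above the floor in both lines at every stage and was within the count. MELO3C018930.2 had 0.315, 0.788 and 1.23 CPM in 1_14, 0.598, 0.588 and 0.469 CPM in 3_14 and 0.490, 0.0446 and 0.0949 CPM in 4_14, against 2.30, 3.97 and 2.67 CPM in 1_6, 1.06, 0.726 and 1.59 CPM in 3_6 and 4.997, 10.2 and 5.51 CPM in 4_6. Its B-6 level fell at 30 against 10 DAP with a change of -1.56 ± 0.37 (adjusted p = 0.0053) and rose at 45 against 30 DAP by 2.61 ± 0.39 (adjusted p = 0.0012, edgeR's quasi-likelihood test), while its B-14 changes were not called.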

How the data were processed

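RNA of 18 melon libraries, 3 plants for each of 6 groups, was sequenced as stranded paired-end poly(A) libraries. The authors used Trimmomatic for read cleaning and HISAT2 for alignment against a melon genome. The genome build, the annotation and the counter of the deposited table are not given in the sources used here. The deposited counts are whole-number counts per gene, not normalized, with between 20651703 and 22675606 counts per library. Its totals limit the precision, and counting intervals cover counting error only.

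CPM was the count divided by the library total. Each pair of groups was fitted on its 6 libraries with edgeR 4.0.16 (TMM factors, filterByExpr, quasi-likelihood F test) in R 4.3.3, and p-values were adjusted by Benjamini and Hochberg over all genes tested. The value after ± is a standard error obtained from the log2 fold change and its F statistic. The fit was tested on simulated data. A call needed an adjusted p of at most 0.05 and a 2-fold change. The authors used an unadjusted p with DESeq for their own comparisons. Alternatives were DESeq2 1.42.0, other factors, filters, thresholds, a replicate block and each library left out. Plants are the replicates, and equal replicate numbers did not pair them.

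The members and lists were chosen with earlier results of these data known. Genes are named in the text when they are annotated in the study, are the 5 off genes or the 5 other genes of highest CPM in each direction, belong to runs of 3 neighbouring numbers, have the 2 smallest p-values of a stage contrast, lie at the 2-fold limit, or are among the 3 in each direction whose ratio, set against the floor, changed most with stage; others were named after their values were seen. None of the identifiers matched the RefSeq table, so no sequences or positions are given.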

Additional observations from a re-analysis of the deposited data

Results flagged for a closer look

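Only the members named by the rules given above were searched here, and the share over all genes was not counted. In 3 of them every library at 45 DAP lay on one side of every library at 10 DAP in B-14 and on the opposite side in B-6. All 3 had been named for a large change of ratio with stage, a choice that favours this pattern. This difference between the lines was not tested. The flavonoid 3′-monooxygenase gene MELO3C025797.2 averaged 139 ± 47.9 CPM in 4_14 and 18.8 ± 2.60 CPM in 1_14, and 1.04 ± 0.233 CPM in 4_6 and 5.78 ± 1.64 CPM in 1_6 (SD, n = 3 each). MELO3C002506.2 averaged 0.0743 ± 0.0681 CPM in 4_14 and 0.609 ± 0.251 CPM in 1_14, and 8.30 ± 1.85 CPM in 4_6 and 1.80 ± 0.438 CPM in 1_6. MELO3C032763.2 averaged 2.87 ± 0.491 CPM in 4_14 and 42.0 ± 14.2 CPM in 1_14, and 0.0906 ± 0.0791 CPM in 4_6, at the level of single counts, and 0 CPM in 1_6.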

How the results depend on the processing

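The 174 members became 178 with TMM-scaled CPM (99 higher in B-14 and 79 higher in B-6, 162 shared), 179 with DESeq2's size factors (98 and 81, 161 shared), 132 with a minimum of 5 CPM and 195 with none. A fold of 1.5 gave 283, a fold of 4 gave 64, and edgeR calls at all 3 stages in place of the rule gave 115, of which 108 were shared. Leaving out 1 library gave between 167 and 199, the highest without 1_14 replicate 2. Requiring at least 10 counts in every library, which removes genes that are low in one line, left 92 members called in 1_14 against 1_6, 87 in 3_14 against 3_6, 72 in 4_14 against 4_6 and 65 in 4_14 against 1_14. The off genes numbered 9 with 0 counts required and 41 with up to 10 counts allowed, and members with a member nearby numbered 12 for the next number and 45 within 10 numbers. With library size alone as the scale, the median of all genes moved by 0.15 on the log2 scale in 3_6 against 1_6, where the members called changed to 45 up and 42 down, compared with 39 up and 47 down, and by 0.18 in 4_6 against 1_6, where they were 39 up and 46 down, compared with 36 up and 48 down. Deviations of libraries with the same replicate number correlated between -0.245 and 0.266, so the numbers were not taken to pair the plants. With a replicate block, the members called numbered 153 in 1_14 against 1_6, 112 in 3_14 against 3_6, 122 in 4_14 against 4_6, 79, 58 and 95 in the B-14 contrasts of 30 with 10, 45 with 30 and 45 with 10 DAP, and 86, 62 and 79 in those of B-6. Of 2828 values of named genes under these alternatives, 62 lost a call, 37 gained one, and 0 changed sign where called, the others keeping their side of the threshold. At this depth, a line held at 3 counts or fewer limits every ratio set against it, and the genes lowest in the higher line are known least well.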
